A study of Mus musculus with 5 samples.

Results

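Ephrins, Eph receptors, semaphorins and plexins were followed in the luminal epithelium of the mouse uterus around embryo attachment. Members were chosen by gene symbol and not by their values, as the genes of the count table named Epha or Ephb (Eph receptors), Efna or Efnb (ephrins), Sema (semaphorins of classes 3 to 7) or Plxn (plexins). Earlier results of these data were known when this choice was made. The members were 51 of 23420 genes, with 14 Eph receptors, 8 ephrins, 20 semaphorins and 9 plexins. All 5 libraries came from wildtype C57BL/6N females, counting the day of the vaginal plug as day 1 of pregnancy. Of these, 1 library each held the luminal layer on day 3 morning, day 4 morning and day 4 evening. The other two came from day 5 morning, 1 from luminal layer away from the attached embryo (label M pole) and 1 from the layer that surrounded it (label AM pole). In the paper's figures M and AM mark the mesometrial and anti-mesometrial poles of the uterus. Between the day 5 libraries, nearness to the embryo and pole of the uterus therefore cannot be told apart. The layer was cut out by laser microdissection of frozen uterus, and day 5 mice had received Chicago blue dye by vein to mark implantation sites. Whether a library pooled several mice was not given in the sources used here.

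Eph receptors are the largest family of receptor tyrosine kinases, and they meet their ephrin ligands where cells touch. Ephrin-A proteins are held in the membrane by a lipid anchor and bind mostly EphA receptors, while ephrin-B proteins span the membrane and bind mostly EphB receptors. Signals run into both cells and act through the actin skeleton and integrins, so that cells repel, adhere or sort into layers. Semaphorins are ligands for plexins, which also act on the actin skeleton and on integrins through small GTPases. Class 3 semaphorins are secreted and most of them need a neuropilin coreceptor, and the other vertebrate classes are anchored in the membrane. The implanting blastocyst attaches to the luminal epithelium, whose cells are linked to each other and rest on a basement membrane.

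Between 15334674 and 19529491 counts were assigned to genes in each library, and the 51 members held from 19573 counts on day 4 evening to 52628 around the embryo on day 5. CPM is the count per 1000000 counts after TMM scaling, which sets the typical gene to no change between libraries, and RPKM divides it by the gene length in kilobases, so genes were compared with each other only by RPKM. All 15 epithelial markers were detected in all 5 libraries. Their summed level ran from 5814 CPM away from the embryo to 10065 CPM around it, with Cldn3 the highest in 4 libraries and Epcam around the embryo. From away to around, Elf3 (48.0 to 650 CPM), Krt19 (38.0 to 159) and Cdh1 (430 to 1316) were among those higher. Cldn3 (1443 to 964), Grhl2 (51.3 to 37.7) and Ovol2 (30.9 to 16.6) were lower. The part of these differences in the values of the members was not tested. With 1 library per condition no difference has a replicate check, and bracketed 95% intervals (exact Clopper-Pearson, of the count ratio on the log2 scale) cover counting error only. Of the 51 members, 38 had a mean of at least 1 CPM and were compared, among the 12915 genes that passed this filter. A member is called higher or lower here, or said to rise or fall, when its log2 change passed 1 in size and its interval lay on the same side of 0. Such calls compare libraries and not conditions, and in bulk tissue fewer cells of a type and less RNA per cell cannot be told apart. Values listed for a gene run in the order day 3 morning, day 4 morning, day 4 evening, day 5 away from the embryo and day 5 around the embryo.

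Markers of other cell types differed between the libraries, most of all around the embryo. Of 14 embryo and trophoblast markers, 1 was at 0 there (Krt42), against 6 to 8 in each of the other 4 libraries, where Cdx2, Pou5f1, Nanog, Gata4 and Hand1 had no count and Dppa5a, Krt42, Sox2 and Gata6 had none in some. The whole list summed to 350 CPM around the embryo and to between 367 and 535 CPM elsewhere. Fgfr2 took most of the list's counts in those 4 libraries and was lowest around the embryo (114 CPM, against 359 to 526). Without Fgfr2, the summed level was 236 CPM around the embryo and between 5.53 and 13.8 CPM elsewhere. Dppa5a made up 111 CPM of the 236 CPM. Smooth muscle markers (9 genes) summed to 436 CPM around the embryo, of which Des made up 354 CPM, and to between 32.4 and 74.1 CPM elsewhere, with Synpo2 the highest and Myocd, Actg2 or Cnn1 at 0. Stromal markers (15 genes, none at 0) summed to 622 CPM around the embryo and to between 736 and 834 CPM in the other libraries, where Col3a1 was the highest. Single stromal genes went both ways. Hand2 (132 CPM, against 4.03 to 20.9 elsewhere), Bmp2 (41.8, against 1.44 to 7.51) and Pdgfrb (13.3, against 3.74 to 7.77) had their highest values around the embryo, and Col3a1 (42.3, against 142 to 223), Dcn (14.1, against 71.7 to 117) and Lum (6.68, against 53.5 to 77.1) their lowest. Immune markers (11 genes) summed to 146 CPM there and to between 424 and 543 CPM elsewhere, with Lyz2 the highest in all 5 libraries and Cd3e at 0 on day 4 evening. Lyz2 alone was at 41.1 CPM around the embryo, against 187 to 287 elsewhere. Cd68 was the only immune marker highest there (38.9 CPM, against 9.99 to 17.7), and Laptm5 (21.9, against 15.6 to 34.8) lay within its range elsewhere. Endothelial markers without Sox17 (11 genes) summed to 130 CPM around the embryo and to between 22.9 and 72.7 CPM elsewhere. Cdh5 made up 71.4 CPM of the sum around the embryo, against 2.76 to 10.8 CPM elsewhere. Pecam1, Cldn5, Esam and Plvap were also highest there, while Emcn (1.57 CPM) and Tie1 (0.465 CPM) were lowest. Tek was higher away from the embryo (25.3 CPM) than around it (14.3 CPM). Gland markers (7 genes) ran from 7.02 CPM away from the embryo to 272 CPM on day 3 morning, and Foxa2, a gland transcription factor, had 0 counts on day 4 evening and 2 away from the embryo. Sox9 was the highest gland marker in every library but that of day 3 morning, where Aldh1a1 was. Prss28 and Prss29 had no count before day 5, Lif none on day 4 evening and Wfdc3 none on day 5. Lif was highest around the embryo, with 17.7 CPM of the list's 55.9 CPM there and at most 2.07 CPM elsewhere. The paper describes Lif in the stroma around attached embryos, so its value there need not come from glands. The part of these cells in the values of the 5 libraries was not tested. Such markers were also present away from the embryo, where stromal markers summed to 755 CPM and immune markers to 424 CPM. All 5 libraries share the scaling and the filter.

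Start sites of a few members are shown here, chosen for the courses given next, and many other members changed as well. Efna1, Efna3 and Efna4 lie beside each other within 66.3 kb of chromosome 3, all on the minus strand, and their values moved apart. Efna5 was second to Efna1 in RPKM among the ephrins around the embryo, Epha2 was the Eph receptor that rose most, and Sema3e was the class 3 semaphorin that fell on day 4 evening. Each window holds 250 bases before and 50 after a start site in the GRCm38.p6 annotation of RefSeq, and for Efna1 and Efna3, which have more than 1 window, the upstream one is printed. Capitals mark TTCNNNGAA (the palindrome read by Stat factors), TGACGTCA (the cAMP response element) and GGGCGG or its reverse CCGCCC (the GC box), searched on both strands.
Efna1, chr3:89280902-89281201, minus strand: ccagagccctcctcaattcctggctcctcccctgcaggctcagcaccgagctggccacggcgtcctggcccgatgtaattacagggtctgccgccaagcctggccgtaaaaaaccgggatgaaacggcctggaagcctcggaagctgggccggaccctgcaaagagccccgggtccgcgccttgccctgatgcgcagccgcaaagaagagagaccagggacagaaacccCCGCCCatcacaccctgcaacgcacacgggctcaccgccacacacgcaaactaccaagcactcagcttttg
Efna3, chr3:89322890-89323189, minus strand: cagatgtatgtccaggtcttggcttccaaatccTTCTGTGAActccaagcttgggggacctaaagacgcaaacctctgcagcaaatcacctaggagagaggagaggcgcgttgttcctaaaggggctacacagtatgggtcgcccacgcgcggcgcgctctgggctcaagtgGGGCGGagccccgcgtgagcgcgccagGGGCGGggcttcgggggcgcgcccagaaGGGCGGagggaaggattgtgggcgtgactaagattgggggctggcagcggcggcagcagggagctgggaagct
Efna4, chr3:89337979-89338278, minus strand: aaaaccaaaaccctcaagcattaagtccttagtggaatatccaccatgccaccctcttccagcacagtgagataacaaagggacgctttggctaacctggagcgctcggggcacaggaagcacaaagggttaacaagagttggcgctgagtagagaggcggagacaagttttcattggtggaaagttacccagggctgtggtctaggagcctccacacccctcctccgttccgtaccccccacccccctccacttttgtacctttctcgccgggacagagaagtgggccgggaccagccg
Efna5, chr17:62881268-62881567, minus strand: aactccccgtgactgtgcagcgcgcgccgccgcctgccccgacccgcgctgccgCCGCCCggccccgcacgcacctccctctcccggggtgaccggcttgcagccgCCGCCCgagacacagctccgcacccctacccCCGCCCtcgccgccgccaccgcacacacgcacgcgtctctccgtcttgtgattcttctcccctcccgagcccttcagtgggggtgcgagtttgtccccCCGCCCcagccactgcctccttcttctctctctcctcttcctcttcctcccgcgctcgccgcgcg
Epha2, chr4:141300971-141301270, plus strand: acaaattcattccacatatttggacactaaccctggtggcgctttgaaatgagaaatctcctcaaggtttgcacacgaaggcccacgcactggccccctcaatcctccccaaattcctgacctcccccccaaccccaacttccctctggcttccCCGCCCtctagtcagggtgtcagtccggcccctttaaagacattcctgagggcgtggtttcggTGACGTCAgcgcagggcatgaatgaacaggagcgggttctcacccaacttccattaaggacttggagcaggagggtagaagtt
Sema3e, chr5:14025026-14025325, plus strand: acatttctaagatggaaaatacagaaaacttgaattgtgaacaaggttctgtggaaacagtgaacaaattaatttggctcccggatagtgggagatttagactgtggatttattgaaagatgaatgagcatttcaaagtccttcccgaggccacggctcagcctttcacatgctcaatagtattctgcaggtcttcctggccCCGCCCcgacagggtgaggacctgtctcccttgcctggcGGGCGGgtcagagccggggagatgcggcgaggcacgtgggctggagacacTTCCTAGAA

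Windows were found for 45 of the 51 members, 59 windows in all. TTCNNNGAA stood in 3 of them (Efna3, Epha3 and Sema3e) and in 7.88% of all 19848 windows. The palindrome read by progesterone and glucocorticoid receptors, searched as well, stood in none of the 59 and in 0.464% of all windows. TGACGTCA stood in 1 member window, that of Epha2, against 2.29% of all windows, and GGGCGG in 44 of 59 against 47.3%. The last 2 motifs were chosen after the windows had been read. A match is a description of letters only, and a window without one says nothing about the factor.

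Ephrin-A ligands changed their leading member over these days. Efna4 had the highest RPKM of the 5 ephrin-A genes on day 3 morning and day 4 morning, with 64.1% and 64.8% of their summed RPKM, and Efna1 led in the other 3 libraries, with 88.2% around the embryo. Efna1, a lipid-anchored ligand best known as the partner of EphA2, was found at 28.4, 16.2, 44.4, 274 and 916 CPM. The lowest value was on day 4 morning, the level was already higher that evening, and both day 5 libraries lay above all earlier ones. Its log2 change from day 4 morning was 1.45 [1.25, 1.66] to day 4 evening, 4.07 [3.91, 4.26] to day 5 away from the embryo and 5.81 [5.65, 5.99] to day 5 around it, which are 16.9-fold and 56.5-fold on day 5. Around the embryo it was 3.34-fold higher than away from it. This was the largest rise to day 5 of any of the 38 members in both libraries.

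Efna4, another lipid-anchored ligand, went the other way, at 73.8, 51.3, 29.0, 15.6 and 25.8 CPM. It was highest on day 3 morning and lowest away from the embryo, with a log2 change of -1.71 [-1.91, -1.53] from day 4 morning to that library and -0.99 [-1.16, -0.82] around the embryo, where it just missed the limit. Efna3, which lies between Efna1 and Efna4, had few reads, with counts of 51, 15, 25, 7 and 84. It was higher around the embryo than on day 4 morning by 2.39 [1.74, 3.45], while its interval away from the embryo, -0.95 [-2.69, 0.23], crossed 0. Around against away, Efna3 was 13.0-fold higher, on 7 counts away from the embryo. So the 3 neighbours on chromosome 3 had 3 courses, with Efna1 higher in both day 5 libraries, Efna3 around the embryo only and Efna4 lower away from it. Efna1 and Efna3 are 34.0 kb apart, and Efna3 and Efna4 10.5 kb.

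Efna5, a lipid-anchored ligand found on many growing axons and their targets, was at 27.3, 31.7, 30.1, 64.6 and 281 CPM. It was nearly level over the first 3 libraries and stood highest around the embryo, with log2 changes from day 4 morning of 1.02 [0.88, 1.17] away and 3.14 [3.02, 3.27] around. The level around the embryo was 4.35-fold that away from it. Efna2 stayed between 1.74 and 2.84 CPM in all 5 libraries and was called in none of the 5 comparisons.

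**Figure D1:**
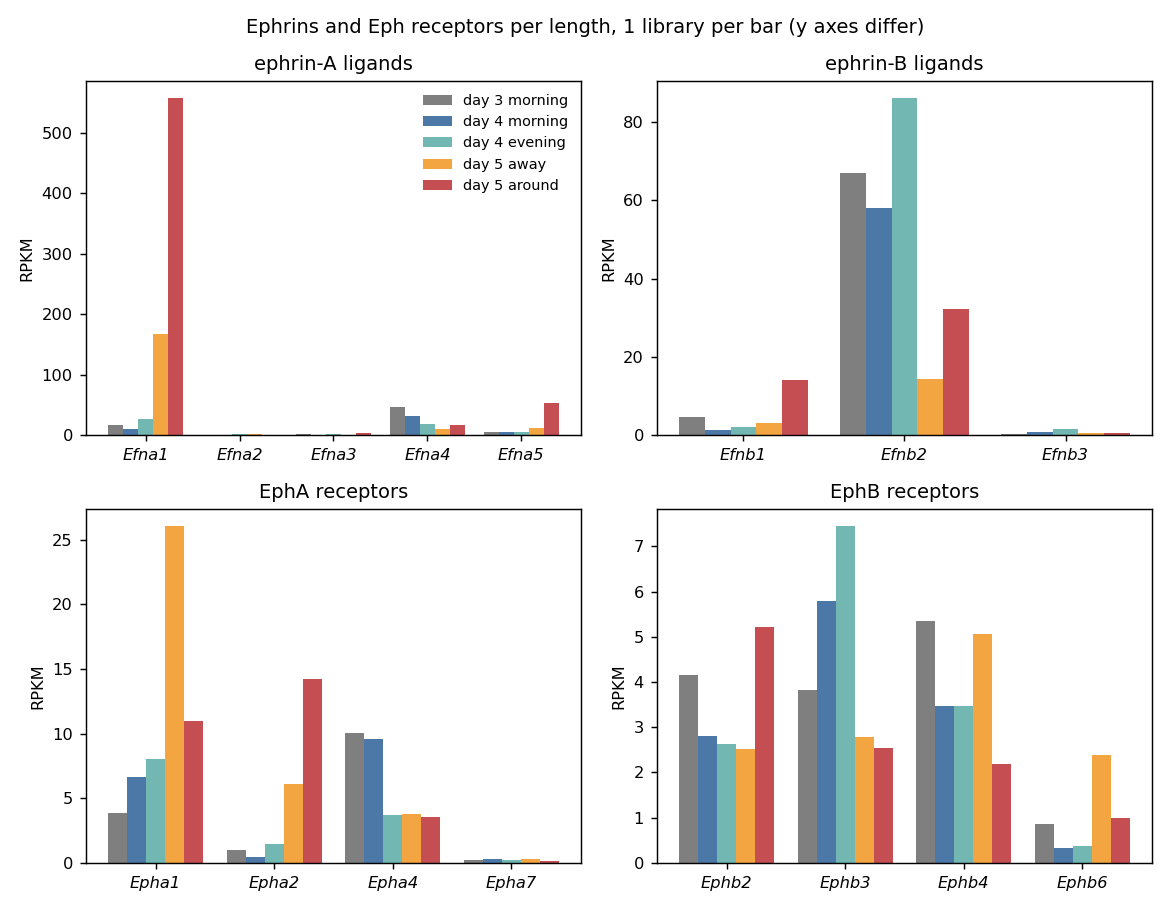
Bars give RPKM (TMM-scaled CPM per kilobase of gene length, y axes differing between panels) of the ephrins and the compared Eph receptors in each of the 5 libraries, 1 library per bar. Efna1 reached 558 RPKM around the embryo against 9.87 on day 4 morning, while Epha4 was lower in both day 5 libraries than on day 4 morning, and Efna4 and Efnb2 were lower away from the embryo.

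Among ephrin-B ligands, Efnb2 was the most abundant per length in every library, with between 68.9% and 96.1% of the summed RPKM of the 3 genes. Efnb2, the transmembrane ligand of EphB4 and other EphB receptors, was at 289, 250.2, 372, 61.9 and 139 CPM. It was highest on day 4 evening and lowest away from the embryo the next morning. The log2 change from day 4 morning was -2.01 [-2.11, -1.92] away and -0.85 [-0.92, -0.77] around, the second short of the limit. Efnb1, the other well-detected transmembrane ligand, followed a different course at 15.1, 4.68, 6.64, 10.4 and 45.7 CPM. It fell from day 3 to day 4 morning (-1.67 [-2.06, -1.33]), was called higher in both day 5 libraries (1.13 [0.78, 1.54] away, 3.26 [2.96, 3.63] around) and was 4.39-fold higher around the embryo than away from it. Efnb1 and Efnb2 were both higher around than away, by 2.12 [1.91, 2.37] and 1.17 [1.07, 1.27]. Efnb3 ranged from 1.04 to 4.87 CPM and was called only from day 3 to day 4 morning, as higher (1.39 [0.68, 2.34]).

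Of 9 EphA receptors 4 passed the filter, and the leading receptor changed with time and place. Epha4 had the highest RPKM on day 3 and day 4 morning, Epha1 on day 4 evening and away from the embryo, and Epha2 around the embryo. Epha2, a receptor abundant in many epithelia, was at 3.97, 1.67, 5.88, 24.0 and 55.8 CPM. Its lowest value was on day 4 morning, as for Efna1, and its highest around the embryo. Log2 changes from day 4 morning were 1.75 [1.21, 2.46] to the evening, 3.76 [3.31, 4.43] away and 4.97 [4.54, 5.64] around, and the day 4 morning value rests on 30 counts. From away to around it changed by 1.21 [1.05, 1.38].

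Epha1, the founding member of the family and an epithelial receptor, was at 12.6, 21.7, 26.4, 85.4 and 35.9 CPM. Its highest value was away from the embryo, and this is the reverse of the order of Epha2 between the day 5 libraries. The log2 change from day 4 morning was 1.97 [1.81, 2.14] away and 0.72 [0.54, 0.91] around, and it was lower around than away (-1.25 [-1.39, -1.12]). Epha4, a receptor that binds both ephrin classes, was at 63.6, 60.6, 23.5, 24.0 and 22.7 CPM. It fell between day 4 morning and day 4 evening (-1.37 [-1.54, -1.20]), and the last 3 libraries lay close together between 22.7 and 24.0 CPM. Against day 4 morning it was lower in both day 5 libraries (-1.33 [-1.50, -1.18] away, -1.41 [-1.59, -1.25] around). Epha7 was between 1.22 and 2.56 CPM, and its fall to the library around the embryo only just passed the limit, from 46 to 21 counts. The other 5 EphA receptors (Epha3, Epha5, Epha6, Epha8 and Epha10) did not pass the filter. Epha10 had 0 counts in all 5 libraries, which allows up to 3 counts each, between 0.161 and 0.190 CPM. Epha6 had 14 and 21 counts on day 3 and day 4 morning and 0 in the last 3 libraries.

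EphB receptors had no shared course. Ephb2, one of the main receptors of ephrin-B ligands, was at 19.9, 13.4, 12.6, 12.1 and 24.9 CPM, highest around the embryo and 1.04 [0.81, 1.29] higher there than away. Ephb3, known from the sorting of cells in intestinal crypts, was at 15.8, 24.0, 30.9, 11.6 and 10.6 CPM, highest on day 4 evening, and it was lower than on day 4 morning in both day 5 libraries (-1.04 [-1.29, -0.81] away, -1.17 [-1.44, -0.93] around). Ephb4, the receptor that pairs with ephrin-B2 in vessels, was at 23.3, 15.1, 15.1, 22.1 and 9.58 CPM. It was lowest around the embryo, with a change of -1.20 [-1.47, -0.94] from the library away from it, which is opposite in sign to Ephb2 and to its ligand Efnb2. Ephb6, which lacks kinase activity, had counts of 56, 22, 22, 168 and 64, with changes from day 4 morning of 2.77 [2.23, 3.59] away and 1.52 [0.88, 2.37] around. Ephb1 did not pass the filter, at 0 to 6 counts.

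Class 3 semaphorins fell together before attachment. From day 3 to day 4 morning, 4 of the 5 compared members fell (Sema3a, Sema3b, Sema3c and Sema3f) and Sema3e was near 0 (-0.02 [-0.19, 0.14]), while 11.1% of all compared genes were called lower. Sema3c, a secreted ligand that works through neuropilins and plexins in heart and vessel development, had the highest RPKM of the class in every library, with between 64.8% and 88.3% of the summed RPKM. It was at 252, 81.5, 92.9, 364 and 612 CPM. The change to day 4 morning was -1.62 [-1.71, -1.54], and from there it rose by 2.16 [2.08, 2.24] away and 2.91 [2.83, 2.99] around, so that both day 5 values passed that of day 3. Sema3a, the classic repellent of growing axons, was at 41.3, 5.51, 3.03, 3.32 and 9.46 CPM. Its change to day 4 morning, -2.88 [-3.22, -2.60], or 7.49-fold lower, was the largest fall of the 38 members, and no later library came back to the day 3 level. Over the same step the summed gland markers went from 272 CPM, of which Aldh1a1 made up 241 CPM, to 30.7 CPM, and their part in the fall of the semaphorins was not tested.

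Sema3e, which binds PlexinD1 without a neuropilin, was at 34.7, 34.1, 7.46, 27.1 and 84.02 CPM. It was the only class 3 semaphorin called on day 4 evening, as lower (-2.17 [-2.49, -1.91]), and it stood highest around the embryo (1.30 [1.16, 1.44] from day 4 morning). The library around the embryo was 3.10-fold above the one away from it. Sema3f, a ligand that prefers neuropilin-2, was at 16.7, 7.02, 3.73, 4.02 and 19.7 CPM. Its low values were on day 4 evening and away from the embryo, and it was 4.90-fold higher around than away (2.26 [1.93, 2.67]). Sema3b was at 9.10, 3.90, 4.30, 14.2 and 10.5 CPM, higher than on day 4 morning both away (1.84 [1.48, 2.27]) and around (1.40 [1.02, 1.84]). Sema3b and Sema3f are 72.3 kb apart on chromosome 9, and only Sema3f was higher around than away by the limit, since the change of Sema3b was -0.44 [-0.72, -0.16]. Sema3a was also higher around than away, by 1.48 [1.08, 1.96]. Sema3d and Sema3g had at most 3 and 4 counts in any library.

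**Figure D2:**
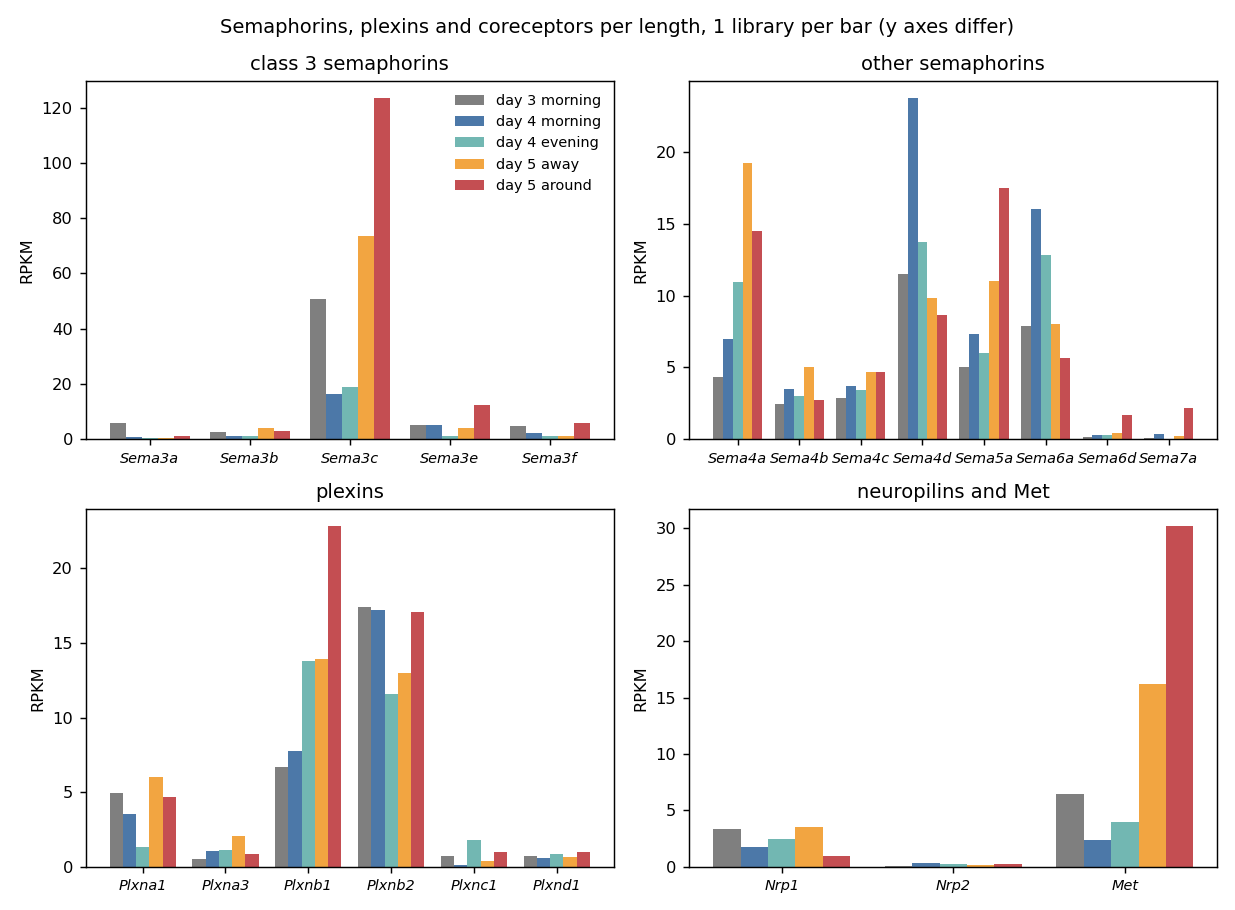
Bars give RPKM (TMM-scaled CPM per kilobase of gene length, y axes differing between panels) of semaphorins, plexins, neuropilins and Met in the 5 libraries, 1 library per bar. Sema3c went from 50.8 RPKM on day 3 morning to 16.5 on day 4 morning and 123 around the embryo, and Plxnb1 and Met were highest around the embryo while Sema4d was highest on day 4 morning.

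Membrane-anchored semaphorins split by gene. Sema4d, the ligand of PlexinB1, was at 50.4, 104, 60.0, 43.2 and 37.97 CPM. It peaked on day 4 morning, with a rise of 1.04 [0.93, 1.16] from day 3, and was lower in both day 5 libraries (-1.27 [-1.39, -1.15] away, -1.45 [-1.58, -1.32] around). Sema4a, a ligand known from immune cells and retina, moved the other way at 14.9, 24.1, 37.7, 66.4 and 50.1 CPM, with rises from day 4 morning of 1.46 [1.30, 1.62] away and 1.05 [0.89, 1.23] around. It took the place of Sema4d as the class 4 gene with the highest RPKM on day 5. Sema4b and Sema4c were at 9.73, 13.6, 11.9, 19.7 and 10.7 CPM and 10.8, 14.0, 13.0, 17.7 and 17.9 CPM, and neither was called in any comparison. Sema4f and Sema4g did not pass the filter, with at most 12 counts.

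Sema5a, whose extracellular part carries thrombospondin repeats, was at 54.0, 79.1, 65.2, 119 and 189 CPM. It was highest around the embryo, where its change from day 4 morning was 1.26 [1.17, 1.35], and the change away was 0.59 [0.50, 0.69]. Sema6a, a transmembrane ligand of PlexinA2 and PlexinA4, was at 54.1, 110.3, 88.2, 55.4 and 38.7 CPM. Like Sema4d it peaked on day 4 morning (1.03 [0.91, 1.14] from day 3) and was lowest around the embryo (-1.51 [-1.64, -1.38]). The change away, -0.99 [-1.10, -0.88], fell just short of the limit. Sema6d, a ligand of PlexinA1, was at 0.749, 1.78, 1.77, 2.95 and 11.1 CPM and rose by 2.57 [2.10, 3.23] to the library around the embryo.

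Sema6b had 0 counts on day 3 morning and 25 on day 4 morning, at least 8.06-fold higher against the floor of 3 counts, and between 17 and 30 in the later libraries. Sema6c had counts of 13, 23, 14, 96 and 16, with its single high value away from the embryo (1.91 [1.34, 2.73] from day 4 morning). Sema7a, a lipid-anchored ligand of PlexinC1 and of integrin alpha1 beta1, had counts of 4, 22, 2, 13 and 124, with its high value around the embryo (2.45 [1.89, 3.28]). The day 4 evening value of Sema7a rests on 2 counts, for a ratio to day 4 morning of -2.47 [-6.41, -1.25] on the log2 scale. Sema5b was not compared, at 0 to 9 counts.

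Plexins are the receptors of semaphorins. Plxnb2 and Plxnb1, both B plexins, had the highest RPKM of the 9 plexins in every library. Plxnb1, the receptor of Sema4d and a partner of the Met receptor, was at 57.6, 66.5, 118, 119.5 and 197 CPM. Its values were lowest on day 3 morning and highest around the embryo, and the change from day 4 morning was 0.83 [0.73, 0.94] to the evening, 0.84 [0.74, 0.95] away and 1.56 [1.47, 1.66] around. Plxnb1 and its ligand Sema4d had changes of opposite sign from day 4 morning in both day 5 libraries and in the evening, when Sema4d changed by -0.79 [-0.91, -0.68]. Plxnb2 was at 114, 113, 76.1, 85.3 and 112 CPM and was called in no comparison.

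Plxna1, a receptor for class 3 and class 6 semaphorins, was at 44.5, 32.0, 12.01, 54.2 and 42.3 CPM. Its low value was on day 4 evening (-1.41 [-1.66, -1.18]). Plxna3, a close relative, was at 3.57, 7.18, 7.90, 14.4 and 6.10 CPM, highest away from the embryo and lower around it (-1.22 [-1.58, -0.91]). Plxnc1, the receptor of Sema7a, was at 5.12, 0.891, 12.5, 2.63 and 7.20 CPM and had the widest range of the plexins that reached 10 CPM. It fell to day 4 morning (-2.38 [-3.39, -1.75]) and rose by the evening (3.65 [3.08, 4.65]), and this low point rests on 16 counts. Against day 4 morning it was higher on day 5 away (1.45 [0.72, 2.47]) and around (2.86 [2.26, 3.87]), and no later value reached that of day 4 evening.

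Plxna2 had counts of 124, 34, 30, 84 and 10. It was the only member called in opposite directions in the day 5 libraries, higher away (1.20 [0.66, 1.87]) and lower around (-1.53 [-2.89, -0.66]), and 65 of 12915 genes had this pattern. Plxnd1, the receptor of Sema3e, was between 4.23 and 6.97 CPM and was not called in any comparison, although Sema3e was. Plxna4 reached 24 counts around the embryo and had at most 3 elsewhere, and Plxnb3 had at most 2.

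Counted together, the members were called more often than genes at large in some comparisons and not in others. From day 3 to day 4 morning, 6 of 38 members rose (15.8%, against 7.28% of all compared genes) and 10 fell (26.3%, against 11.1%). By day 4 evening 3 rose (7.89%, against 6.88%) and 4 fell (10.5%, against 6.74%). Away from the embryo on day 5, 12 rose from day 4 morning (31.6%, against 14.8%) and 5 fell (13.2%, against 14.2%). Around the embryo 16 rose (42.1%, against 20.7%) and 6 fell (15.8%, against 22.5%). From away to around, 13 were higher (34.2%, against 13.2%) and 6 lower (15.8%, against 14.7%). Falls from day 4 morning to day 5 thus stood near or under the share over all genes, and the calls on day 4 evening were close to it.

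**Figure D3:**
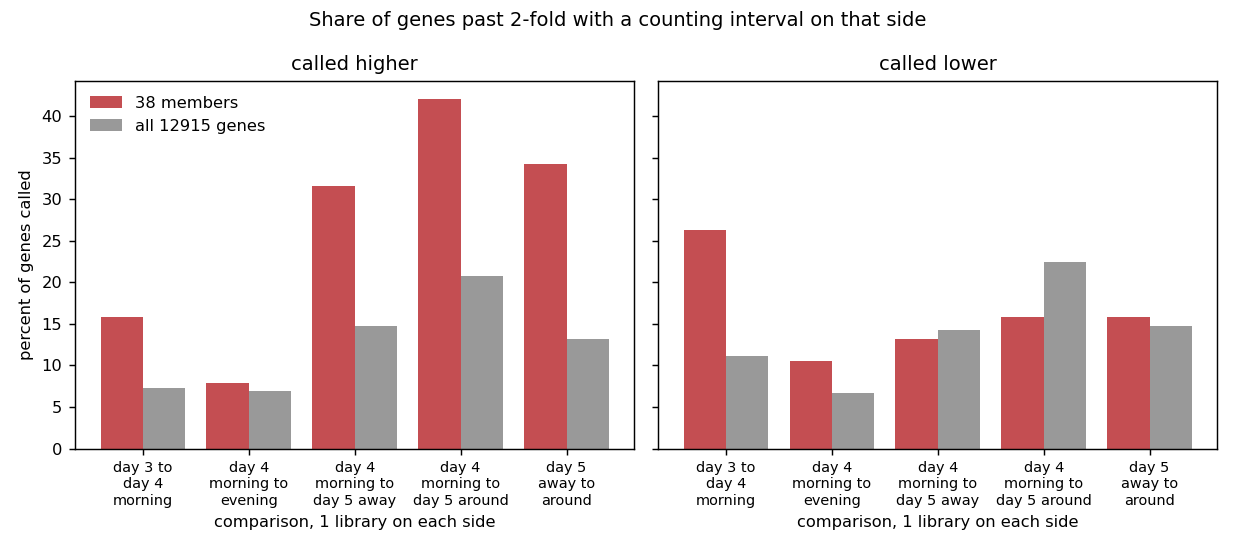
Bars give the percent of the 38 compared members and of all 12915 compared genes called higher (left) or lower (right) in each of the 5 comparisons, with 1 library on each side. Members were called higher in 42.1% of cases around the embryo on day 5 against 20.7% of all genes, and lower in 15.8% against 22.5%.

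Median changes over the 38 members were -0.05 to day 4 morning, -0.00 to day 4 evening, 0.54 to day 5 away, 0.71 to day 5 around and 0.37 from away to around. All 5 intervals of the median (binomial order statistics, over genes that are not replicates) held 0, for example [-0.33, 0.99] away and [-0.23, 1.40] around. Medians over all compared genes lay between -0.05 and 0.00. The 3 comparisons from day 4 morning share that library, so an unusual value there would enter all of them. Of the 38 members, 9 were higher in both day 5 libraries than on day 4 morning (Efna1, Efna5, Efnb1, Epha2, Ephb6, Plxnc1, Sema3b, Sema3c and Sema4a) and 3 were lower in both (Epha4, Ephb3 and Sema4d). Another 7 were higher around the embryo only (Efna3, Plxnb1, Sema3e, Sema3f, Sema5a, Sema6d and Sema7a), and 2 away only (Epha1 and Sema6c). Passing the limit in 1 library only is no difference between them, and Plxnb1 and Sema5a changed from away to around by 0.72 [0.64, 0.80] and 0.67 [0.59, 0.74], under the limit. Lower away only were Efna4 and Efnb2, and lower around only were Epha7 and Sema6a. Plxna2 was called in opposite directions, and the remaining 12 members in neither library. Over all 12915 compared genes, 1379 were higher in both and 1393 lower in both, 1205 were higher around only and 465 away only, 357 were lower away only and 1454 around only, and 6513 were called in neither.

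**Figure D4:**
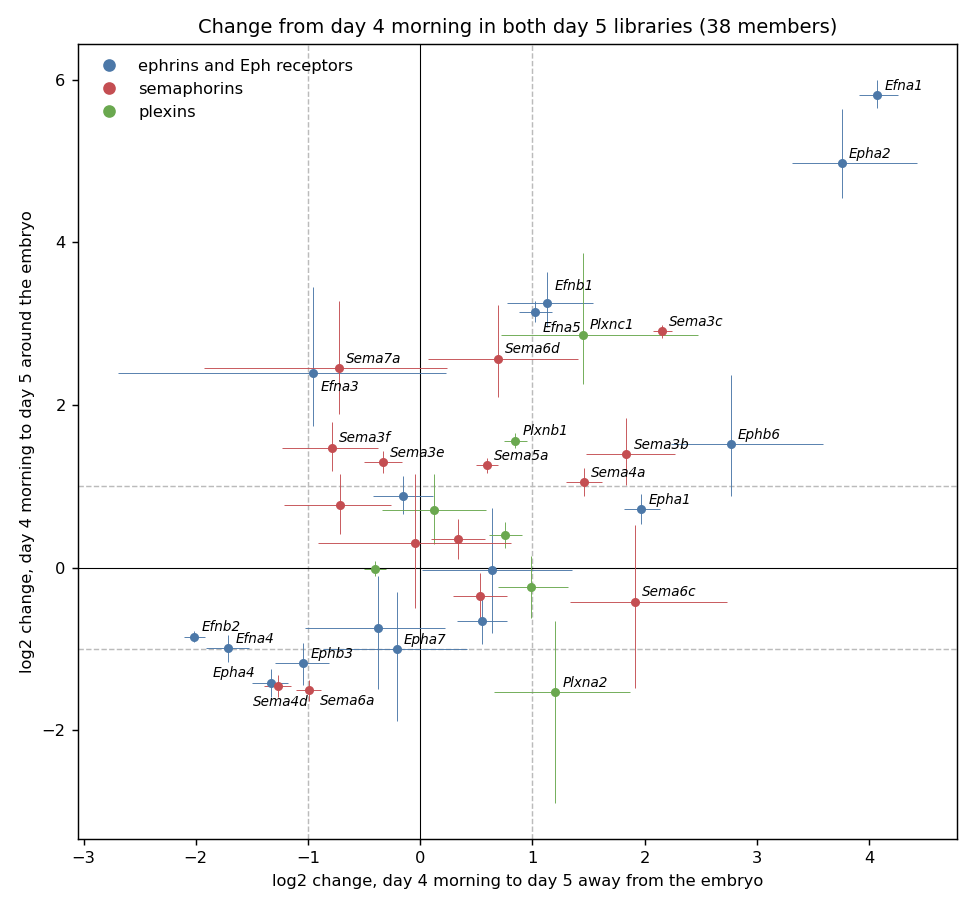
Each point is 1 of the 38 compared members, with its log2 change from day 4 morning to day 5 away from the embryo (x axis) and around it (y axis), 95% counting intervals as lines (drawn to the point where the interval does not reach it) and dashed lines at a log2 change of 1 and -1; members past a dashed line are named. Efna1 (4.07, 5.81) and Epha2 (3.76, 4.97) lie farthest out, and at the lower right only Plxna2 lies past both dashed lines.

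Of the 28 members that reached 10 CPM in any library, 12 had their highest CPM around the embryo, 6 away from it, 5 on day 3 morning, 3 on day 4 evening and 2 (Sema4d and Sema6a) on day 4 morning. A further 10 passed the filter but stayed under 10 CPM, with peaks between 1.74 and 9.01 CPM. The other 13 did not pass it, and their highest value was 1.39 CPM. Only Epha10 of the 51 had exons that overlap those of another gene in the table, over 79 bases.

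**Figure D5:**
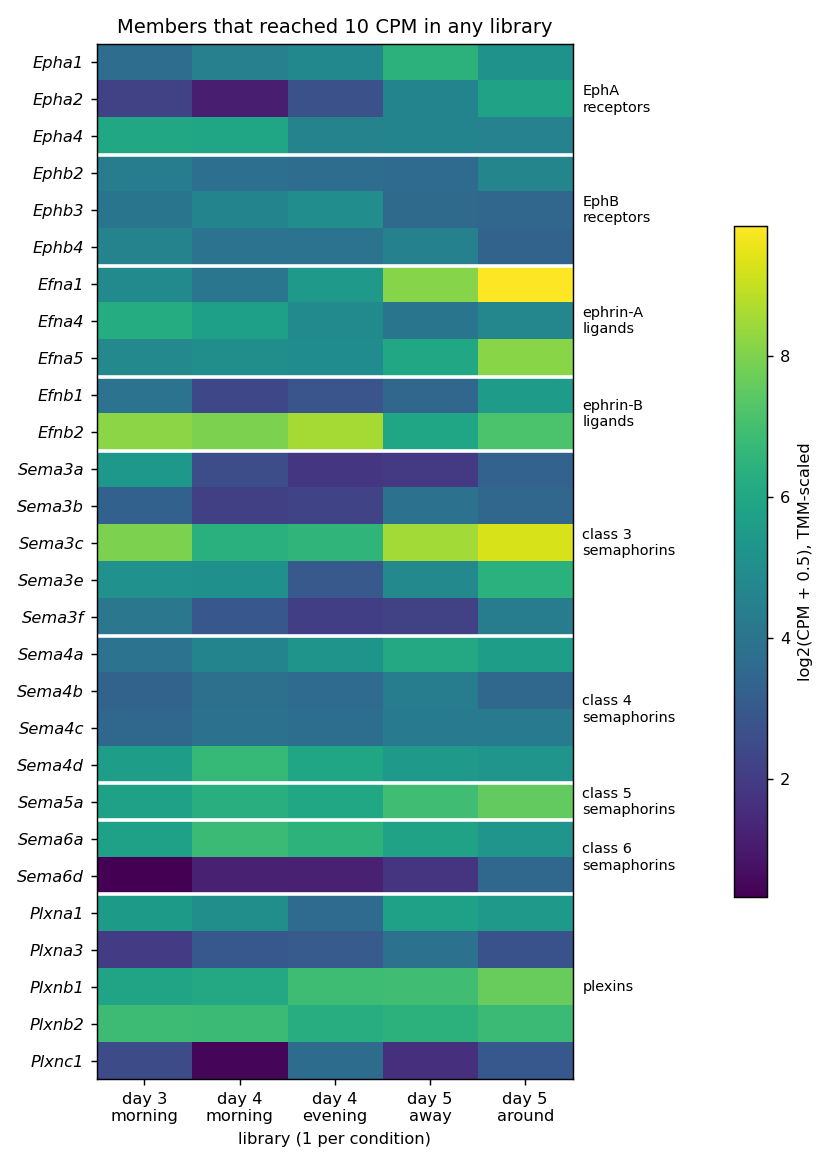
Colours give log2(CPM + 0.5) of the 28 members that reached 10 CPM, in rows by family, over the 5 libraries in columns, 1 library per condition. Efna1, Efna5 and Sema3c are brightest around the embryo (916, 281 and 612 CPM), and Efnb2 is brightest on day 4 evening (372 CPM).

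Coreceptors of semaphorins and ephrins were read from a list of 11 genes, all compared. Away from the embryo 5 rose and 1 fell from day 4 morning, and around it 4 rose and 1 fell. These are 45.5% and 9.09% of the list away, against 14.8% and 14.2% of all compared genes, and 36.4% and 9.09% around, against 20.7% and 22.5%. Met, the receptor of hepatocyte growth factor that associates with B plexins, was at 42.7, 16.1, 26.2, 108 and 201 CPM, with changes of 2.73 [2.56, 2.92] away and 3.63 [3.47, 3.82] around. Its course, lowest on day 4 morning and highest around the embryo, had the same low and high libraries as those of Efna1 and Epha2. Nrp1, the coreceptor of Sema3a and other class 3 semaphorins, was at 20.0, 10.3, 14.6, 20.8 and 5.86 CPM, and it was lower around than away (-1.81 [-2.16, -1.51]). Nrp2 did not pass 2.39 CPM in any library. Per length, Nrp1 was at 0.991 RPKM around the embryo, where the ligand Sema3c was at 123 RPKM. Itga1, an integrin chain of the Sema7a receptor, was at 2.07, 1.34, 2.65, 22.8 and 5.40 CPM, and Itgb1, its partner chain, at 293, 247, 256, 411 and 711 CPM. Itga1 was highest away from the embryo and Itgb1 around it. L1cam, an adhesion molecule in the neuropilin complex, was at 11.7, 4.40, 2.97, 19.6 and 6.27 CPM, highest away.

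Signal transducers were 57 genes, 54 of them compared. Away from the embryo 11 rose and 5 fell from day 4 morning, and around it 16 rose and 8 fell, with medians of 0.09 and 0.37. Their shares were 20.4% and 9.26% away, where 14.8% and 14.2% of all compared genes were called, and 29.6% and 14.8% around, where 20.7% and 22.5% were. Sdcbp2, a PDZ adaptor related to the syntenin that binds ephrin-B tails, was at 15.1, 5.12, 11.3, 64.8 and 426 CPM and changed by 3.63 [3.35, 3.98] away and 6.35 [6.08, 6.69] around. Fyn, a Src family kinase used by Eph receptors and plexins, was at 14.2, 11.4, 21.3, 41.8 and 62.9 CPM and rose in both (1.87 [1.65, 2.11] away, 2.46 [2.25, 2.69] around). Vav3, an exchange factor downstream of Eph receptors, was at 87.8, 43.5, 35.8, 10.03 and 7.90 CPM and fell in both (-2.10 [-2.35, -1.88] away, -2.44 [-2.73, -2.20] around). Crmp1 and Dpysl3, cytosolic mediators of semaphorin signals, went apart. Crmp1 was highest around the embryo, with 183 counts there and 5 on day 4 morning, and Dpysl3 was lower away than on day 4 morning (-1.92 [-2.32, -1.59]). Mical2, a relative of the plexin-bound actin oxidase Mical1, was lower around than on day 4 morning (-2.56 [-2.84, -2.32]).

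Shedding and turnover genes were 9, all compared, and around the embryo 6 rose from day 4 morning and none fell, with a median of 1.44. At the same rule 20.7% of all compared genes rose there and 22.5% fell, against 66.7% and 0% of the list. Away from the embryo 2 rose and 1 fell (22.2% and 11.1%, against 14.8% and 14.2%), with a median of 0.47. Furin, a protease that cleaves class 3 semaphorins, was at 50.3, 39.1, 41.5, 57.1 and 115 CPM (1.55 [1.43, 1.68] around). Cbl and Cblb, ubiquitin ligases that take Eph receptors down, rose around the embryo by 1.44 [1.13, 1.79] and 2.08 [1.74, 2.49]. Gpc3, a lipid-anchored proteoglycan, rose in both day 5 libraries (2.42 [1.98, 3.01] away, 3.78 [3.38, 4.35] around). Rhbdl2, a rhomboid protease that cuts ephrin-B3, was lowest away from the embryo, with counts of 184, 73, 22, 12 and 87.

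Scaling touched the splits of calls. With library totals in place of TMM, the median over all genes moved to -0.29 for day 3 to day 4 morning, 0.28 for day 4 morning to day 5 away and -0.36 for away to around. The members called higher and lower were then 3 and 11, 15 and 3, and 10 and 8 in these comparisons, against 6 and 10, 12 and 5, and 13 and 6 with TMM. Of all genes, 3.99% were then higher and 16.8% lower in the first of these comparisons, 20.6% and 10.7% in the second, and 9.82% and 21.5% in the third. Library totals also ended the calls of Efnb2 (0.86), Epha2 (0.90) and Ephb2 (0.73) from away to around, of Ephb3 (-0.77) and Sema4d (-0.99) to day 5 away, and of Sema4d (0.74), Sema6a (0.73) and Sema6d (0.87) from day 3 to day 4 morning. A test that assumes a spread between samples called fewer members. With the edgeR exact test at an assumed dispersion of 0.1 (false discovery rate under 0.05), 9 members rose around the embryo (Efna1, Efna3, Efna5, Efnb1, Epha2, Plxnc1, Sema3c, Sema6d and Sema7a) and none fell, where 12.3% of all compared genes rose and 12.1% fell. Away from it 5 rose (Efna1, Epha1, Epha2, Ephb6 and Sema3c) and 1 fell (Efnb2), where 5.78% of all genes rose and 5.88% fell. From day 3 to day 4 morning, Sema3a was the only class 3 semaphorin still called lower. At an assumed dispersion of 0.4, Efna1 and Epha2 were left as higher around the embryo, where 2.91% of all genes were, and no member was called in any other comparison.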

How the data were processed

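RNA of the microdissected luminal layer was amplified with SMART-seq v.4 and sequenced in paired ends. The authors aligned the reads with HISAT2 to GRCm38/mm10 and deposited raw counts per gene from featureCounts (Subread 2.0.0), with gene positions and lengths. Annotation, strand setting and treatment of reads with several alignments were not given in the sources used here.

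Python 3.11.15 with numpy 2.4.6, pandas 2.3.3 and scipy 1.17.1 was used, and TMM scaling was run by edgeR 4.0.16 in R 4.3.3. Plots used matplotlib 3.10.9. Library sizes were effective sizes after TMM, 2 counts were added as a prior before taking log2 CPM, and the filter required 1 CPM on average over the 5 libraries. The floor of 3 counts equals 0.161 to 0.190 CPM, and folds against 0 counts were set against it. The depth of 15334674 to 19529491 counts limits members of a few counts most, whose intervals are wide. Intervals and floors cover counting error only, since amplified reads without molecular identifiers are not independent molecules.

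Groups came from the sample titles, with 1 library in each, and 5 pairs of libraries were compared. A replicate test was not possible. Called genes passed a log2 change of 1 in size with the exact 95% interval on that side. Alternatives were library totals, DESeq2 1.42.0 size factors, a prior of 0.5 counts, no filter, a filter at 5 CPM, the fold alone and the edgeR exact test at dispersions of 0.1 and 0.4. The call rule was tested on simulated data.

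The members, the lists of partner and marker genes and the tests were chosen with earlier results of these data known. All 5 values were given for members that reached 10 CPM. Of each partner list, the neuropilins and up to 4 genes with the largest change to each day 5 library were named, among those reaching 10 CPM. A gene of these lists that the rule selects is not reported here. Of the marker lists, the genes with the most counts or with 0 were named. Single epithelial, stromal, immune, endothelial and embryo genes were added for their values on day 5, after these were seen. Marker sums without Fgfr2 and Sox17 and the TGACGTCA and GGGCGG motifs were added after the values were seen. The markers Cxcl15, Spink1 and Adgre1 were not analysed here.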

Additional observations from a re-analysis of the deposited data

Results flagged for a closer look

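Plxna2, the receptor of Sema6a and other semaphorins, was the only member whose calls from day 4 morning had opposite signs in the day 5 libraries. Its log2 change was 1.20 away from the embryo, from 34 to 84 counts, and -1.53 around it, to 10 counts. Each side is 1 library, so the difference was not tested. Between the day 5 libraries it was -2.73 [-4.07, -2.01] around against away, and the edgeR exact test at an assumed dispersion of 0.1 called it lower there, together with Sema6c. The same test called Plxna2 neither higher away nor lower around from day 4 morning, so the opposite calls were not kept. At a dispersion of 0.4 Plxna2 was not called in any comparison.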

How the results depend on the processing

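With 1 library per condition, leaving out a library leaves no comparison. No paired analysis was possible because each condition has 1 library. Counts of called members depended most on an assumed spread. With the edgeR exact test at a dispersion of 0.1, members called higher and lower were 1 and 2 from day 3 to day 4 morning, 1 and 0 to day 4 evening, 5 and 1 to day 5 away, 9 and 0 to day 5 around, and 5 and 2 from away to around. At a dispersion of 0.4 they were 0 and 0 in each, except 2 higher around the embryo. Library totals gave 3 higher from day 3 to day 4 morning and 3 lower to day 5 away. A filter at 5 CPM gave 2 higher from day 3 to day 4 morning and 3 lower from away to around. Without a filter, 5 were higher on day 4 evening. The other counts stayed within 1.5 times, and each median within its interval. The counts in this paragraph show only how calls moved with the setting. They were not set beside the share over all genes here and are no result about the members.

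Of 140 changes of the 28 members that reached 10 CPM, 8 lost and 6 gained a call under library totals, and no called change had the other sign under DESeq2 size factors, library totals or a prior count of 0.5. Uncalled changes did so in 7 cases, 5 under library totals (among them Efna5 from day 3 to day 4 morning, 0.22 to -0.08, and Ephb2 to day 5 away, -0.15 to 0.13) and 2 under DESeq2 size factors. Among others, depth limits Sema7a, Sema6b, Efna3, Ephb6 and Plxna2, whose lowest libraries held 22 counts or fewer.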
